A study of Mus with 8 samples.

Results

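A set of 10 genes of the cells that wrap blood vessels was followed across the 8 whole tumours of the study. They comprise 5 genes used to mark pericytes (Rgs5, Cspg4, Kcnj8, Abcc9 and Mcam) and 5 genes of the contractile apparatus of smooth muscle (Acta2, Tagln, Myh11, Cnn1 and Myl9). They are 10 of the 31281 genes and transcripts tested. They were chosen by name, and a probe was assigned to a gene where its accession is a RefSeq transcript of that gene. All 10 had at least 1 probe, and the 10 probes used were well above background on all 8 arrays.

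Cells of MC38, a line of mouse colon cancer, had grown into subcutaneous tumours in 4 Ext1S100a4Cre hosts (Ext1 flox/flox; S100a4-Cre) and 4 WT hosts, both given as B6 in the labels. They were collected 25 to 30 days after the cells were transplanted, and 1 Agilent array per tumour measured total RNA of the whole tumour. Ext1 encodes a polymerase of heparan sulfate chains, and the S100a4 promoter that drives Cre is active in fibroblasts and some immune cells. The floxed Ext1 and the Cre were those of the hosts, so the transplanted MC38 cells kept intact Ext1 in both groups. Ages and sexes are not in the labels. Each tumour has its own label, and nothing there says whether hosts shared a litter or whether pooling occurred, so p-values measure the spread between these 8 tumours.

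Pericytes sit on capillaries and small venules beneath the basement membrane, while vascular smooth muscle cells form contractile layers around arteries and larger veins. Endothelial cells recruit both through platelet-derived growth factor B, which binds heparan sulfate and acts on the receptor Pdgfrb of the mural cells. In tumours the coverage of vessels by these cells is often loose and irregular. Several of the contractile genes are not restricted to vessels, since activated fibroblasts of tumours also make Acta2, Tagln and Myl9.

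The arrays differed in brightness and in what else the tumours held. Their 75th percentiles of intensity spanned 846.9 to 1265, with Ext1S100a4Cre host tumours 1 and 4 lowest at 854.8 and 846.9. Probes for the Y-linked genes were not well above background in these 2 tumours, although several were in each of the other 6. The Y-linked gene Eif2s3y read -8.53 and -8.15 in these 2, against -2.245 to -0.40 in the other 6. All WT host tumours had such signal, so this trait is spread unevenly over the hosts. Its part in the host differences was not tested. The 8 arrays shared 1 slide, with tumours 1 and 2 of each host in the first slide row and tumours 3 and 4 in the second. Of 12 tested skeletal muscle markers, 12 had a higher mean in the Ext1S100a4Cre host, with list means of 2.91 and 3.67 in its tumours 2 and 3 and between -1.53 and -0.31 in the other 6. The labels name colon cancer cells, and the 8 epithelial markers were well above background in all tumours, with a list mean that ran from -0.46 to 0.45 in the Ext1S100a4Cre host and from -0.30 to 0.52 in the WT host. The keratin gene Krt8 lay between 3.96 and 4.69. Ext1 itself differed by -0.28 (SE 0.18, limma adjusted p = 0.747) in whole-tumour RNA, and whether its probe lies in the floxed part is not given in the sources used here.

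None of the 10 genes differed between hosts beyond the spread between tumours. Limma called 0 of the 10, and also 0 of all 31281 genes, which is 0% of those tested. At an unadjusted p under 0.05 it called 0 of the 10 against 2050 genes in all (6.55%), of which 1374 were higher (4.39%) and 676 lower (2.16%) in the Ext1S100a4Cre host. That split depends on the scaling, with 174 higher and 2554 lower in the unscaled series matrix, 960 and 727 with median scaling, and 2314 and 401 with normexp background correction. The groups overlapped for each of the 10 genes, whereas they did not overlap for 1419 genes in all (4.54%). On the probes used, mean levels were lower in the Ext1S100a4Cre host for 9 of the 10, all but Myh11, and for 41.9% of all genes. That share of all genes was 79.2% with the unscaled series matrix and 29.6% with normexp background correction, where 10 of 10 and 9 of 10 of the genes were lower. The median difference of the 10 was -0.22 on the log2 scale, against 0.050 for all genes tested. Without Ext1S100a4Cre host tumour 1 the mean difference over the 10 genes was -0.050, against -0.30 with it. It was -0.17 without Ext1S100a4Cre host tumours 1 and 4, and -0.42 without its tumours 2 and 3. In whole tumours, fewer cells of a type and less RNA per cell cannot be told apart.

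**Figure D1:**
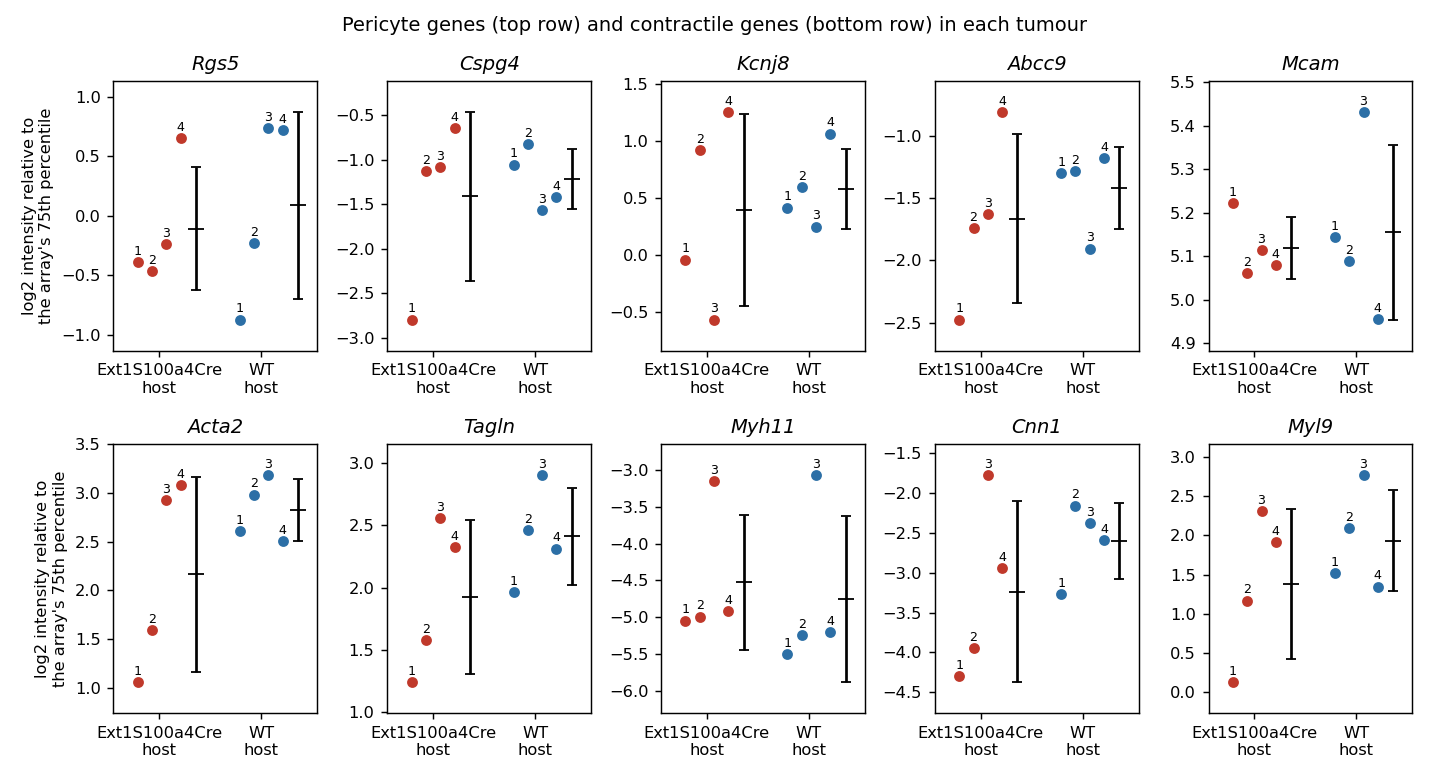
Each panel plots 1 gene on its own vertical axis, as log2 intensity relative to the array's 75th percentile, with a point for each tumour, Ext1S100a4Cre host on the left and WT host on the right, and a line for the mean with its SD. The groups overlap in every panel, and in the panels of Acta2, Tagln, Cnn1 and Myl9 the same 2 Ext1S100a4Cre host tumours, 1 and 2, lie below all 4 WT host tumours.

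Rgs5, a regulator that shortens G-protein signalling and one of the most used pericyte transcripts, gave no separation. Its levels, as for all values below in log2 relative to the array's 75th percentile, were -0.39, -0.47, -0.23 and 0.65 in Ext1S100a4Cre host tumours 1 to 4, against -0.87, -0.23, 0.73 and 0.72 in WT host tumours 1 to 4. Tumour 4 of the Ext1S100a4Cre host stood with the 2 highest WT host tumours, and the lowest value of all was in a WT host tumour. The means were -0.11 ± 0.52 and 0.088 ± 0.78 (SD, n = 4 each), and the difference was -0.20 (SE 0.42, limma adjusted p = 0.906, exact permutation p = 0.686).

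Cspg4 encodes the proteoglycan NG2 on the pericyte surface. It measured -2.80, -1.12, -1.08 and -0.65 in Ext1S100a4Cre host tumours 1 to 4, against -1.05, -0.82, -1.57 and -1.42 in WT host tumours 1 to 4. The highest and the lowest of the 8 values both belong to the Ext1S100a4Cre host, with tumour 1 lower than any other tumour by 1.23. The difference of -0.20 (SE 0.44, limma adjusted p = 0.912) became 0.27 without that tumour.

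Kcnj8 and Abcc9 encode the pore and the regulatory subunit of the ATP-sensitive potassium channel of mural cells, whose opening relaxes them. The genes are neighbours on chromosome 6, with 0 genes between them in the RefSeq table. Kcnj8 had levels of -0.045, 0.92, -0.57 and 1.25 in the Ext1S100a4Cre host, against 0.41, 0.59, 0.24 and 1.06 in the WT host. Abcc9 had levels of -2.48, -1.74, -1.63 and -0.81 in the Ext1S100a4Cre host, against -1.30, -1.28, -1.90 and -1.18 in the WT host. For both subunits Ext1S100a4Cre host tumour 4 was the highest of the 8, as it was for Cspg4, and the WT host tumours lay closer together than the Ext1S100a4Cre host tumours. The differences were -0.19 (SE 0.41, limma adjusted p = 0.907) for Kcnj8 and -0.25 (SE 0.34, limma adjusted p = 0.848) for Abcc9. The 892 tested genes of chromosome 6 had a median difference of 0.18.

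Mcam, an adhesion molecule also called CD146 that endothelial cells and some tumour cells carry as well, was the steadiest of the 10 genes. Its levels were 5.22, 5.06, 5.11 and 5.08 in the Ext1S100a4Cre host, against 5.14, 5.09, 5.43 and 4.96 in the WT host. The SD over the 8 tumours was 0.14, and 93.2% of all genes tested had a larger one. For the other 9 genes that share was between 8.93% and 25.4%. The difference of -0.036 (SE 0.14) had a 95% interval of -0.35 to 0.28, the narrowest of the 10.

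**Figure D2:**
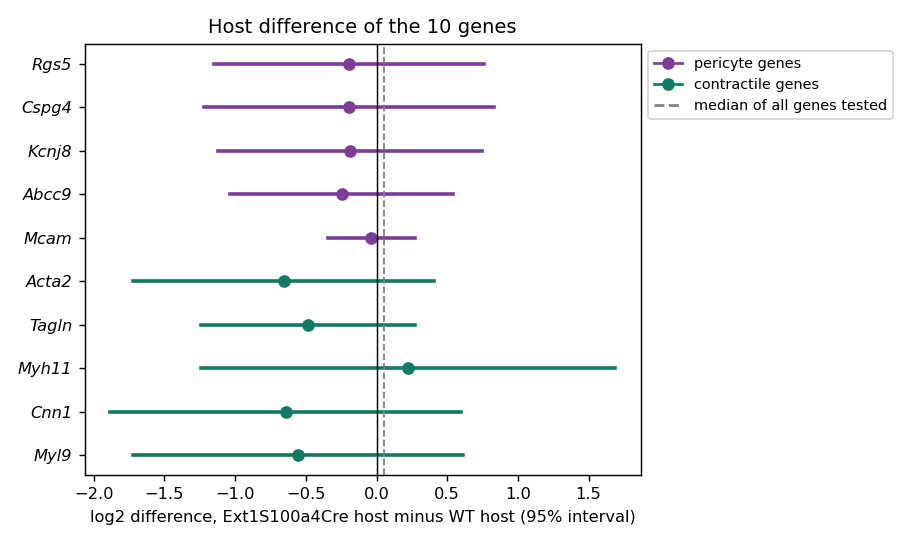
The horizontal axis is the log2 difference, positive where the Ext1S100a4Cre host was higher than the WT host, with a point for the estimate and a bar for limma's 95% interval of each of the 10 genes, and a dashed line at the median of all genes tested. All 10 intervals include 0, and the interval of Mcam, from -0.35 to 0.28, is much narrower than that of Myh11, from -1.24 to 1.69.

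Of the 5 pericyte genes, 5 had a lower mean in the Ext1S100a4Cre host, with a median difference of -0.20. Without Ext1S100a4Cre host tumour 1 this held for 3 of 5, and likewise for 3 of 5 without WT host tumour 3. The mean of the 5 genes, centred on the average of all tumours, was -0.65, -0.022, -0.23 and 0.55 in the Ext1S100a4Cre host, against -0.084, 0.12, 0.036 and 0.28 in the WT host. The WT host tumours fell inside the span of the Ext1S100a4Cre host tumours.

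On the probes used, the contractile genes Acta2, Tagln, Cnn1 and Myl9 had mean differences of -0.49 to -0.66. These genes shared 1 pattern across the tumours on those probes, while Myh11 did not. Acta2 encodes smooth muscle alpha actin, the thin filament of contractile mural cells and of myofibroblasts. It reached 1.06, 1.59, 2.93 and 3.08 in Ext1S100a4Cre host tumours 1 to 4, against 2.61, 2.98, 3.19 and 2.51 in WT host tumours 1 to 4. Tumours 1 and 2 of the Ext1S100a4Cre host lay below every WT host tumour, while its tumours 3 and 4 lay within the WT host range. The means were 2.16 ± 1.00 and 2.82 ± 0.32 (SD, n = 4 each). The difference of -0.66 (SE 0.46, limma adjusted p = 0.749, exact permutation p = 0.314) is a ratio of 0.634, with a 95% interval of 0.304 to 1.32.

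Tagln encodes transgelin, an actin-binding protein of smooth muscle. Its levels were 1.24, 1.58, 2.56 and 2.32 in the Ext1S100a4Cre host, against 1.97, 2.46, 2.91 and 2.31 in the WT host, a difference of -0.49 (SE 0.33, limma adjusted p = 0.747, exact permutation p = 0.286). The order resembled that of Acta2, with Ext1S100a4Cre host tumour 1 lowest and WT host tumour 3 highest.

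Myl9 encodes the regulatory light chain of smooth muscle myosin, whose phosphorylation starts contraction. It had levels of 0.13, 1.17, 2.31 and 1.92 in the Ext1S100a4Cre host, against 1.52, 2.09, 2.77 and 1.35 in the WT host, a difference of -0.55 (SE 0.51, limma adjusted p = 0.784). Tumour 1 of the Ext1S100a4Cre host was 1.04 below the next lowest tumour.

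Cnn1 encodes calponin 1, which binds actin and slows the myosin motor. The probe used gave -4.30, -3.95, -1.77 and -2.94 in the Ext1S100a4Cre host, against -3.27, -2.16, -2.38 and -2.59 in the WT host. Here Ext1S100a4Cre host tumour 3 was the highest of the 8 and tumours 1 and 2 of that host the lowest. The difference was -0.64 (SE 0.54, limma adjusted p = 0.772). A further Cnn1 probe was well above background in 0 of 8 tumours and was left out.

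Myh11 encodes the heavy chain of smooth muscle myosin and is the strictest marker of mature smooth muscle among the 10. It measured -5.05, -4.99, -3.15 and -4.92 in Ext1S100a4Cre host tumours 1 to 4, against -5.50, -5.24, -3.07 and -5.20 in WT host tumours 1 to 4. One tumour of each host, number 3 in both, stood far above the other 3, which lay close together. The difference between hosts was 0.22 (SE 0.64, limma adjusted p = 0.931). The signal was dim, with intensities of 25.3 to 33.4 in the 6 low tumours and of 128 and 123 in the 2 high ones.

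As a list, adipocyte markers were high in the same 2 tumours, though not every marker was. The mean of the 7 tested adipocyte genes was 2.97 in Ext1S100a4Cre host tumour 3 and 2.58 in WT host tumour 3. It was also 1.51 in Ext1S100a4Cre host tumour 2, where Myh11 was low, and it lay between -2.08 and -0.54 in the other 5 tumours. The part of other cell types in the Myh11 levels was not tested.

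**Figure D3:**
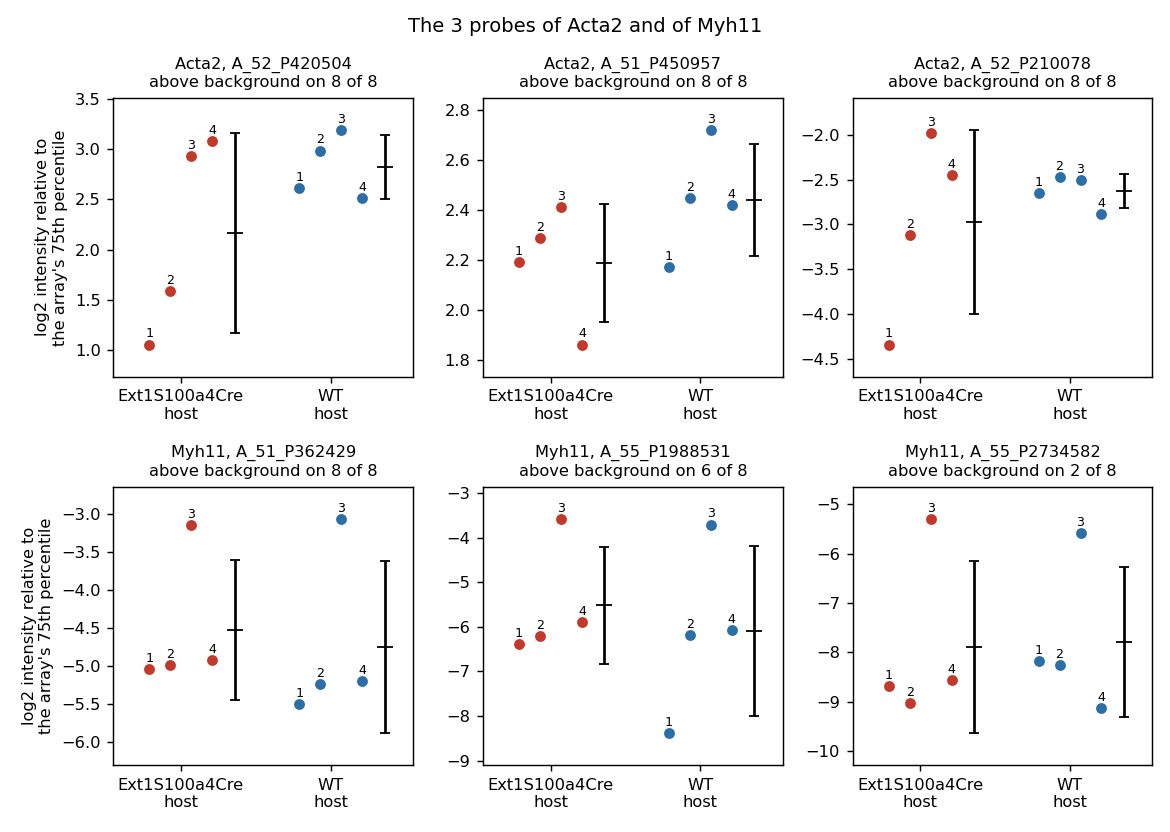
Each panel plots 1 probe of Acta2 or Myh11 on its own vertical axis, as log2 intensity relative to the array's 75th percentile, with a point per tumour and Ext1S100a4Cre host to the left of WT host. The 3 Myh11 probes all place tumour 3 of each host far above the others, while the 3 Acta2 probes differ in where they place Ext1S100a4Cre host tumour 4.

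Acta2 and Myh11 each had 3 probes, which allows the patterns to be compared between probes of 1 gene. For Acta2 the 3 probes gave differences of -0.66, -0.25 and -0.35, all lower in the Ext1S100a4Cre host. They did not rank the tumours alike. Tumour 4 of the Ext1S100a4Cre host, at 3.08, was close to the top on the probe used but lowest of the 8 on probe A_51_P450957, which read 2.19, 2.29, 2.41 and 1.86 in the Ext1S100a4Cre host, against 2.17, 2.45, 2.72 and 2.42 in the WT host. On that probe tumours 1 and 2 of the Ext1S100a4Cre host lay within the WT host range, while on the third probe, A_52_P210078, they again lay below every WT host tumour. The Acta2 pattern across the Ext1S100a4Cre host tumours thus depends on the probe.

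For Myh11 the 3 probes agreed on the 2 high tumours but not on the direction between hosts. The differences were 0.22 on the probe used, 0.57 on probe A_55_P1988531 and -0.11 on probe A_55_P2734582, which did not pass the background filter. Probe A_55_P1988531, well above background on 6 of 8 arrays, read -3.58 in Ext1S100a4Cre host tumour 3 and -3.71 in WT host tumour 3. The highest of the other 6 tumours read -5.90 on it. Probe A_55_P2734582 was well above background on 2 of 8 arrays, 1 of each host, and read -5.29 and -5.59 in those same 2 tumours.

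Ext1S100a4Cre host tumours 1 and 2, but not its tumours 3 and 4, lay below every WT host tumour for 4 of the 10 genes, Acta2, Tagln, Cnn1 and Myl9. The same held for 878 of all genes tested (2.81%), and this way of counting was chosen after the values were seen. For Acta2 it held on the probe used and on probe A_52_P210078, but not on probe A_51_P450957. Tumour 1 of the Ext1S100a4Cre host was the lowest of the 8 for 6 of the 10 genes, against 15.6% of all genes, and WT host tumour 3 was the highest for 6 of the 10, against 19.8% of all genes.

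Those 2 low tumours lay in the first slide row. Within that row the contractile genes differed by -0.90 on average between hosts, and within the second row by 0.052. For the pericyte genes the corresponding values were -0.35 and 0.0056. On the probe used, Acta2 differed by -1.47 in the first row and 0.16 in the second. The test of that difference between rows, an interaction of host and slide row added after the data were seen, gave 1.63 (SE 0.45) with an unadjusted p of 0.0105 and a limma adjusted p of 0.997. Acta2 was the only 1 of the 10 genes with an unadjusted p under 0.05 there, against 1264 of all genes (4.04%). On its probe A_51_P450957 the first-row tumours read 2.19 and 2.29 in the Ext1S100a4Cre host, against 2.17 and 2.45 in the WT host. The second-row tumours read 2.41 and 1.86 on that probe, against 2.72 and 2.42. The contrast between rows thus depends on the Acta2 probe. With 2 tumours of each host in a row, row and tumour cannot be told apart.

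Of the 5 contractile genes, 4 had a lower mean in the Ext1S100a4Cre host and the median difference was -0.55. The count of 4 was the same without Ext1S100a4Cre host tumour 1 and without WT host tumour 3, but the mean difference of -0.42 became -0.11 and -0.18. That mean difference was -0.14 without Ext1S100a4Cre host tumours 1 and 4, and -0.71 without its tumours 2 and 3. The mean of the 5 genes, centred as before, was -1.14, -0.67, 0.82 and 0.14 in the Ext1S100a4Cre host, against -0.29, 0.28, 0.93 and -0.076 in the WT host.

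**Figure D4:**
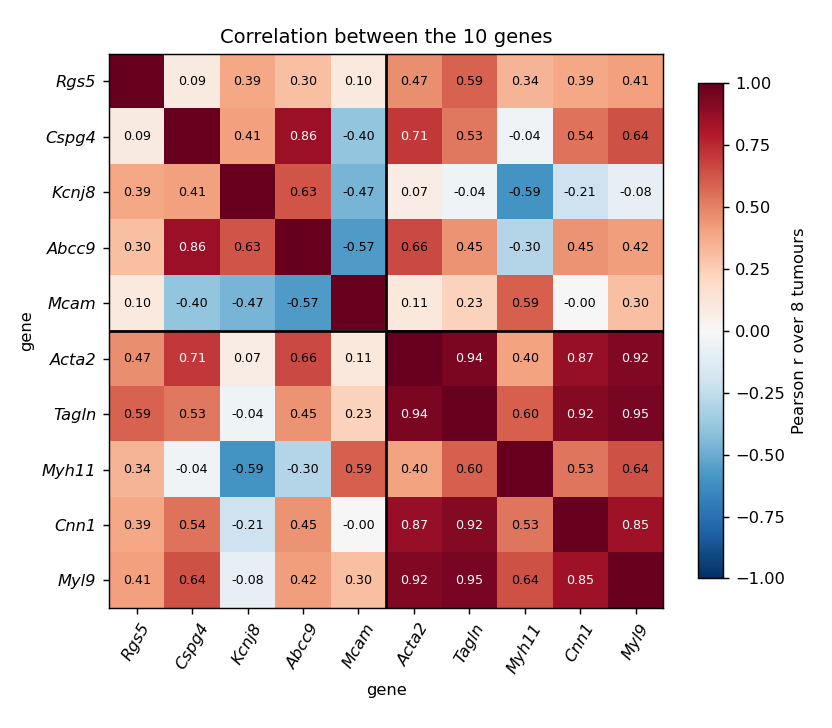
The grid gives Pearson's r over the 8 tumours for each pair of the 10 genes, with the pericyte genes before the contractile genes on both axes and colour from negative to positive. On the probe used for each gene, Acta2, Tagln, Cnn1 and Myl9 form a block of r between 0.849 and 0.948. The pericyte pairs range from -0.568 to 0.858.

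Pairs of contractile genes had higher correlations across tumours than pairs of pericyte genes, a difference that was not tested. Of the 45 pairs of the 10 genes, 7 had a Pearson r with an exact permutation p under 0.05 after Benjamini-Hochberg adjustment over the 45. Of the 10 contractile pairs, 10 had a positive r with a median of 0.859, and 6 passed. The share of pairs of other genes that would pass was not computed. For Tagln and Myl9 r was 0.948 (adjusted exact permutation p = 0.00558) and Spearman's rho was 0.976 (adjusted exact permutation p = 0.0179), and r was 0.883 without the 2 tumours farthest from the median of Tagln. It was the only 1 of the 45 pairs to pass by both measures.

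Some of the other contractile pairs leaned on the 2 low tumours. Acta2 and Cnn1 had r = 0.870 and rho = 0.667 (adjusted exact permutation p = 0.0392 and 0.340), and r was 0.362 without Ext1S100a4Cre host tumours 1 and 2. Acta2 and Myl9 had r = 0.924 and rho = 0.905 (adjusted exact permutation p = 0.00558 and 0.0685), and r was 0.884 without them. The 4 pairs with Myh11 had r between 0.401 and 0.635, and none of these 4 passed.

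Among the 10 pericyte pairs, 7 had a positive r, the median was 0.201, and 1 passed by Pearson's r. Cspg4 and Abcc9 had r = 0.858 (adjusted exact permutation p = 0.0392) and rho = 0.762 (adjusted exact permutation p = 0.236). The value was 0.460 without Ext1S100a4Cre host tumour 1 and WT host tumour 3. The channel subunits Kcnj8 and Abcc9 had r = 0.626 and rho = 0.738 (adjusted exact permutation p = 0.358 and 0.258). Mcam had a negative r with Cspg4, Kcnj8 and Abcc9, at -0.397, -0.467 and -0.568. Of the 25 pairs of a pericyte and a contractile gene, 18 were positive and 0 passed. A slide row held only 4 tumours, too few for r within rows, and all genes of a tumour share its cell makeup and its array.

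The genes with the most similar profiles over the 8 tumours were ranked by Pearson's r among 15723 named genes, without a test. A top r picked from so many genes over 8 tumours is high by selection. Whether these genes share a cell source was not tested. Tagln was most like the leukocyte survival genes Bcl2a1c and Bcl2a1d, with r of 0.993 and 0.990. Myl9 was most like Gimap7, a GTPase gene of lymphocytes, and Tbxas1, the thromboxane synthase of platelets and macrophages, with r of 0.991 and 0.989. Acta2 was most like Asb10 and the cardiac actin Actc1, with 0.982 and 0.976. For Mcam the 2 closest genes were Ldlrad3 and Nrp2, both at 0.983. Cspg4 was most like the mechanosensitive channel gene Piezo2 (0.949), Ripk3 (0.947) and the basement membrane collagen Col4a1 (0.947). The closest gene was Klhl36 for Rgs5 (0.946), Atp7b for Kcnj8 (0.939) and Pcdh1 for Abcc9 (0.946). It was Mup2 for Myh11 (0.965) and Gbp2b for Cnn1 (0.948).

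Further genes of the mural lineage showed no common shift. Of 16 other pericyte genes tested, 10 had a lower and 6 a higher mean in the Ext1S100a4Cre host, 0 passed limma's adjusted test, and the median difference was -0.15. Without Ext1S100a4Cre host tumour 1 the number lower was 5, and without WT host tumour 3 it was 6. It was 6 without Ext1S100a4Cre host tumours 1 and 4, and 11 without its tumours 2 and 3. Pdgfrb, the receptor through which mural cells are recruited, stood at -0.23, 1.05, 1.14 and 1.45 in the Ext1S100a4Cre host, against 1.14, 1.49, 1.34 and 0.70 in the WT host (difference -0.31, SE 0.37). Tumour 1 of the Ext1S100a4Cre host was again the lowest. Notch3, the Notch receptor of mural cells, differed by -0.21 (SE 0.26).

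Vtn, which encodes vitronectin and is made by brain pericytes of mice, was the only 1 of the 16 whose groups did not overlap. It measured -2.76, -2.72, -2.76 and -1.58 in the Ext1S100a4Cre host, against -4.55, -3.57, -2.85 and -2.96 in the WT host. The difference of 1.03 (SE 0.43) missed the threshold (limma adjusted p = 0.747). No overlap with higher values in the Ext1S100a4Cre host was seen for 3.40% of all genes.

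Of 20 other smooth muscle genes 18 were tested, with 10 lower, 8 higher and a median difference of -0.072. The number lower was 7 without Ext1S100a4Cre host tumour 1 and 8 without WT host tumour 3. It was 5 without Ext1S100a4Cre host tumours 1 and 4, and 13 without its tumours 2 and 3. Des, the intermediate filament gene shared by smooth and striated muscle, had -4.19, -0.39, -0.24 and -3.50 in the Ext1S100a4Cre host, against -4.03, -4.04, -3.08 and -4.09 in the WT host. Its high values were in Ext1S100a4Cre host tumours 2 and 3, the 2 with the skeletal muscle markers. Hspb6, a small heat shock protein of muscle, differed by 0.65 (SE 0.23, limma adjusted p = 0.747) and Actg2, the enteric smooth muscle actin, by -0.34 (SE 0.16).

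The regulators of the contractile programme were also tested. Srf, the transcription factor that binds the promoters of such genes together with myocardin, measured 0.78, 0.61, 0.55 and 0.79 in the Ext1S100a4Cre host, against 0.76, 0.84, 1.08 and 0.74 in the WT host (difference -0.17, SE 0.13, limma adjusted p = 0.757). Of 10 genes in this list 8 were tested, 7 of them lower, with a median difference of -0.14. The number lower was 5 without Ext1S100a4Cre host tumour 1 and 6 without WT host tumour 3. It was 3 without Ext1S100a4Cre host tumours 1 and 4, and 8 without its tumours 2 and 3. Myocd, the gene of myocardin, has a probe that did not pass the background filter.

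Signals that recruit mural cells, listed together with receptors of such signals, had a lower mean in the Ext1S100a4Cre host for 16 of 17 genes. The share of all genes with a lower mean was 41.9%. The median difference of the list was -0.49, with 0 past limma's adjusted test. Pdgfb measured -1.07, -0.33, 0.29 and 0.76 in the Ext1S100a4Cre host, against 0.55, 0.73, 1.41 and 0.57 in the WT host. Tumours 1 to 3 of the Ext1S100a4Cre host lay below all 4 WT host tumours, and tumour 4 did not. The difference was -0.90 (SE 0.40, limma adjusted p = 0.747). Of the receptors of the transforming growth factor beta family, Tgfbr1 differed by -0.49 (SE 0.22), Acvrl1 by -0.93 (SE 0.45) and Tgfbr2 by -0.96 (SE 0.61). The number lower was 13 without Ext1S100a4Cre host tumour 1 and 14 without WT host tumour 3. Without Ext1S100a4Cre host tumours 1 and 4 it was 10, and the mean difference was -0.018 against -0.53. Without tumours 2 and 3 of that host it was 15, and the mean difference was -1.05.

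Endothelial genes, the partners of mural cells in the vessel wall, were lower in mean for 13 of 14, with a median difference of -0.47. Cdh5, the cadherin of endothelial junctions, was at -1.48, 0.14, 0.37 and 0.28 in the Ext1S100a4Cre host, against 0.56, 0.89, 0.66 and 0.61 in the WT host. Its groups did not overlap, as for 1.14% of all genes in the lower direction, but the difference of -0.85 (SE 0.40) missed the threshold (limma adjusted p = 0.747). Pecam1 differed by -0.36 (SE 0.30). Without Ext1S100a4Cre host tumour 1, 8 of 14 were lower and the mean difference was -0.025, against -0.40 with it. Without tumours 2 and 3 of that host, 14 of 14 were lower and the mean difference was -0.75.

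**Figure D5:**
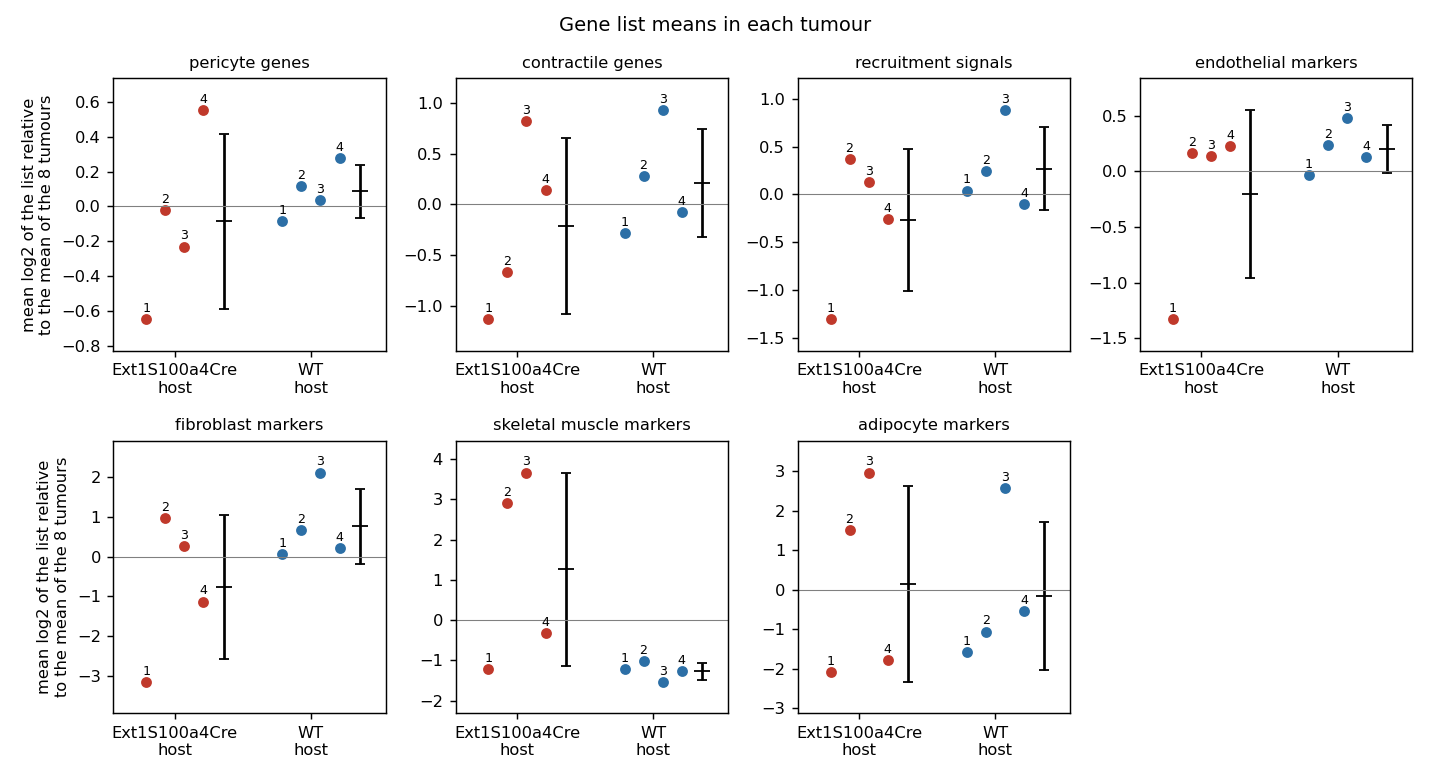
Each panel plots the mean log2 level of 1 gene list in each tumour, centred on the average of the 8 tumours, with Ext1S100a4Cre host to the left of WT host and 1 vertical axis per panel. Ext1S100a4Cre host tumour 1 is the lowest tumour for every list shown except the skeletal muscle list. The skeletal muscle list is high only in Ext1S100a4Cre host tumours 2 and 3.

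Set against the endothelial list in the same tumour, the 10 genes gave no common direction. The pericyte mean minus the endothelial mean was 0.68, -0.19, -0.37 and 0.33 in the Ext1S100a4Cre host, against -0.048, -0.11, -0.44 and 0.15 in the WT host, a difference of 0.23. The contractile mean minus the endothelial mean was 0.19, -0.84, 0.69 and -0.087 in the Ext1S100a4Cre host, against -0.25, 0.044, 0.46 and -0.21 in the WT host, a difference of -0.022. The 2 groups overlapped for both.

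Fibroblast markers had a lower mean for 14 of 14 genes, with a median difference of -1.67 and 0 past limma's adjusted test. The list mean was -3.16, 0.96, 0.27 and -1.14 in the Ext1S100a4Cre host, against 0.058, 0.67, 2.12 and 0.21 in the WT host. Tumour 2 of the Ext1S100a4Cre host was thus low for the contractile genes and second highest of all tumours for the fibroblast list. The mean difference of -1.53 was -0.73 without Ext1S100a4Cre host tumour 1, -1.08 without WT host tumour 3 and -0.15 without Ext1S100a4Cre host tumours 1 and 4. It was -2.91 without Ext1S100a4Cre host tumours 2 and 3. Macrophage markers had a lower mean for 10 of 10 genes, with a median difference of -1.40. Their mean difference of -1.50 was -0.90, -1.01, -0.58 and -2.41 with the same tumours left out, in the same order. The part of fibroblasts and macrophages in the levels of the 10 genes was not tested.

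Among 12 tested paralogues that many cell types express, 10 had a lower mean, and their median difference was -0.14. Myh9, the non-muscle myosin heavy chain, measured 3.94, 4.56, 4.64 and 4.65 in the Ext1S100a4Cre host, against 4.66, 4.69, 4.96 and 4.68 in the WT host. These groups did not overlap, by a narrow margin, and the difference was -0.30 (SE 0.19, limma adjusted p = 0.747). The same was true of Myl12a, a non-muscle myosin light chain named after its values were seen, with a difference of -0.13 (SE 0.10), so 2 of the 12 did not overlap, against 1.14% of all genes in the lower direction. Cnn2 and Cnn3, the other two calponin genes, differed by -0.52 (SE 0.25) and -0.56 (SE 0.34), and the cytoplasmic actin Actg1 by -0.23 (SE 0.14).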

How the data were processed

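One-colour Agilent arrays measured 8 whole tumours. The scanner output was written by Agilent Feature Extraction, version 10.7.3.1 per the file headers and version 9.1 per the submitters' processing notes. The deposited values used are linear spot intensities, background-subtracted and detrended per the file headers, plus flags of 0 or 1 for spots above background, saturation and outliers.

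Control spots and outlier spots were removed, and log2 intensity was set relative to the 75th percentile of each array's non-control spots. Replicate spots were averaged by probe. A probe was kept where at least 4 of 8 arrays had it well above background, and each gene was represented by its brightest kept probe. Names came from a RefSeq table of assembly GRCm38.p6. The headers name another build, so no coordinates are given. The percentile was first taken over probes and then changed to spots, to match the processing of an earlier analysis of these files, after the first results had been seen.

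The host comparison used limma 3.58.1 (R 4.3.3) across 31281 genes and transcripts (Benjamini-Hochberg, two-sided, threshold 0.05). The limma step was also run on simulated arrays with known changes. Single values also had an exact two-sided permutation test over 70 splits, whose smallest possible p is 0.0286. Array brightness and number limit the precision. Differences are Ext1S100a4Cre host minus WT host. The 10 genes, the comparison lists and the rules were chosen with earlier results of these data known. Other genes could be named if they were among the up to 4 members of a list with the smallest p, among the 3 genes most like 1 of the 10, or in a short set of vessel, muscle and target genes, and only some of these are described. Alternatives covered background correction, scaling, the deposited series matrix of the same intensities, filters, probe choice, blocks, variance models and left-out tumours. The labels do not pair the tumours by replicate number, so the main fit treated them as unpaired.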

Additional observations from a re-analysis of the deposited data

Results flagged for a closer look

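Among 24 groups of 4 tumours checked for a tumour far from its group, 3 values stood apart, and chance gives about 1 in 20. Myh11 in Ext1S100a4Cre host tumour 3 was -3.15, with a gap to the next tumour that was 0.934 of the group's range. Myh11 in WT host tumour 3 was -3.07, with a share of 0.877. Abcc9 in WT host tumour 3 was -1.90, below the other 3 WT host tumours, with a share of 0.837. The 2 Myh11 values lie on the same side, and the other 2 Myh11 probes show the same 2 tumours.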

How the results depend on the processing

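No gene of the 10 reached an adjusted p under 0.05 under any of 24 alternatives, where adjusted p ran from 0.311 to 1. Acta2, Tagln, Cnn1 and Myl9 were lower in the Ext1S100a4Cre host under all 24, but their sizes moved. Leaving out 1 tumour at a time, Acta2 ranged from -0.96 to -0.29, Tagln from -0.70 to -0.26, Cnn1 from -1.13 to -0.29 and Myl9 from -0.86 to -0.14. The other 6 changed direction under some. Myh11 differed by -0.025 with the unscaled series matrix, where the median of all genes was -0.20 against 0.050, so all 10 differences there should be read against that shift. Array weights gave 0.33 for Rgs5 and 0.014 for Mcam. Without Ext1S100a4Cre host tumours 1 and 4, Cspg4 was 0.11. Without its tumours 2 and 3, Rgs5 was 0.044, Kcnj8 0.025 and Myh11 -0.23. The cause was not tested. With 1 tumour left out, Rgs5 ranged from -0.52 to 0.019, Cspg4 from -0.45 to 0.27, Kcnj8 from -0.48 to 0.13, Abcc9 from -0.53 to 0.023, Mcam from -0.10 to 0.056 and Myh11 from -0.23 to 0.79. The mean of the pericyte genes ranged from -0.39 to 0.014 and that of the contractile genes from -0.77 to -0.11.

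Over all genes, the count past the adjusted threshold was 0, with 2050 at an unadjusted p under 0.05. It was 1 with normexp, 1 with array weights, 11 without Ext1S100a4Cre host tumours 1 and 4, and 0 to 2 when 1 tumour was left out, with 2 without WT host tumour 3. The unadjusted count was 3297 with array weights, 5361 without Ext1S100a4Cre host tumours 2 and 3, and 1465 to 2965 when 1 tumour was left out. The labels do not pair the tumours by replicate number, and a check of same-numbered tumours was mixed. Their correlations were 0.493, -0.162, 0.591 and -0.245. For tumours 1 and 3 of the Ext1S100a4Cre host the same-numbered WT host tumour was the most alike, and for tumours 2 and 4 it was not. With so few tumours the check cannot decide whether they were paired. With the replicate block the unadjusted count was 3241, of which 1588 were higher and 1653 lower. Under that block the SE of Tagln was 0.193 against 0.33 (limma unadjusted p = 0.0508, limma adjusted p = 0.484). The SE of Cspg4 was 0.441 against 0.445. With the percentile taken over probes, added after the data were seen, the unadjusted count was 1949 and no direction of the 10 changed. Myh11 at its dim signal is limited by brightness over background.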

Other observations

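For the remaining cell type lists, the list means differed between hosts by less than the SD within either host. Of 8 tested Schwann and nerve genes 6 had a lower mean in the Ext1S100a4Cre host, with a median difference of -0.24. Of 5 tested keratinocyte genes 3 were lower (median -0.092), and of 8 epithelial tumour cell genes 2 were lower (median 0.10). Among the 5 keratinocyte genes, 1 was higher and 1 lower at a limma unadjusted p under 0.05, against 4.39% and 2.16% of all genes. These were Krt10 (difference 0.53, SE 0.17) and Krt14 (difference -0.56, SE 0.22), both at limma adjusted p = 0.747. S100a4, whose promoter drives Cre, differed by 0.11 (SE 0.63, limma adjusted p = 0.968).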
